A study of Mus musculus with 47 samples.

Results

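The colony-stimulating factors and their receptors were followed across all 12 RNA-seq libraries of a study of the chromatin reader ZMYND8 in mouse macrophages. The 8 members were picked by gene symbol, with earlier results of these data known. They are the ligands Csf1, Csf2, Csf3 and Il34, and the receptor genes Csf1r, Csf2ra, Csf2rb and Csf3r. All 8 were among the 51912 genes of the tables of bone-marrow-derived macrophages (BMDMs). In the tables of the Raw264.7 macrophage line, 6 were listed in the comparison of D/E-A with WT Zmynd8, 8 in that of Zmynd8 KO, 7 in that of K122R and 8 in that of p65 KO.

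There were 6 BMDM libraries. WT cells came from Zmynd8 fl/fl littermates and cKO cells from Zmynd8 fl/fl mice that were heterozygous for Lyz2-Cre, in which Cre is driven from the lysozyme M locus of myeloid cells and removes exons 6 and 7 of Zmynd8. Marrow from either genotype was grown in recombinant M-CSF (20 ng/ml), which is the protein product of Csf1. The cells were left untreated (NT) or were given lipopolysaccharide (LPS, 100 ng/ml), a bacterial ligand of Toll-like receptor 4, or interleukin-4 (IL-4, 20 ng/ml) for 6 h. The age of the mice is not given in the sources used here. Per the methods, each library was a mixture of 3 biological replicates. Every condition was therefore 1 library and no comparison below has a replicate check.

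The other 6 libraries carry the label Raw264.7. In 3 of them Zmynd8 was knocked out with a lentiviral guide RNA, either alone (Zmynd8 KO) or with added WT Zmynd8 or the D/E-A mutant. In the other 3, p65 (the product of Rela) was knocked out in the same way and LPS was given, either alone (p65 KO) or with added WT p65 or the K122R mutant. For the Zmynd8 lines the sources differ: the labels name no LPS, while the study's text describes RNA-seq of WT Zmynd8 and D/E-A cells as made after LPS. Whether these libraries were treated therefore cannot be settled here. No dose or time is given in the labels of any Raw264.7 library. The heading of the column used for WT p65 gives only WT and LPS, without the knockout. Whether a line is 1 clone is not given in the sources used here.

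Colony-stimulating factors control the survival, growth and activation of myeloid cells. CSF1 and IL-34 both bind CSF1R, the receptor tyrosine kinase on which most macrophages depend. GM-CSF, encoded by Csf2, binds an alpha chain (Csf2ra) that pairs with the common beta chain (Csf2rb), and G-CSF, encoded by Csf3, binds CSF3R and drives the production of neutrophils. Macrophages are known to make Csf2 and Csf3 after Toll-like receptor stimulation, when NF-κB proteins such as p65 enter the nucleus.

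Before the values, the stretches upstream of 3 ligand genes show what was searched for. The CK-1 element is a short promoter element known from cytokine genes, searched here as GAGATTCC on both strands within 250 bases upstream of the gene start in the GENCODE annotation (mm10). These starts are at base 54249667 of chromosome 11 for Csf2, 98701263 of chromosome 11 for Csf3 and 107760469 of chromosome 3 for Csf1. The deposited Raw264.7 tables give wider spans for Csf2 (54247270 to 54249899) and Csf3 (98700897 to 98704503), so the windows printed for these genes lie upstream of the GENCODE start but inside the deposited span. Among 21938 mouse protein-coding genes, 164 held it (0.748%). Of the 8 members, only Csf2 and Csf3 did. The NF-κB consensus was found in the window of Csf1 alone among the 8 members, and in 4.24% of all windows. The Csf1 window held no CK-1 element. The sequences below run 5′ to 3′ on the strand of the gene, with the matching letters in capitals. They lie at chr11:54249731-54249760 (minus strand) for Csf2, at chr11:98701141-98701170 (plus strand) for Csf3 and at chr3:107760604-107760633 (minus strand) for Csf1, where the match reads on the opposite strand. They are shown because Csf2, Csf3 and Csf1 were the ligand genes with enough signal to compare in the p65 lines described last. A match is a description of letters and not a bound site.
Csf2, CK-1 element: ataagggccagGAGATTCCacaactcaggt
Csf3, CK-1 element: aggaaggaacaGAGATTCCccgatttcaca
Csf1, NF-κB consensus: gggccttgagGGAAAGTCCCtaggggccag

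The BMDM libraries held 22597408 to 28386612 counts and the Raw264.7 libraries 15127110 to 21042039 recovered reads. All 7 macrophage markers were above 3 counts in every BMDM library, and Mertk had only 2 to 4 reads in the p65 lines. Zmynd8 ranged from 79.0 to 128 counts per 1000000 (CPM) in WT and from 81.5 to 151 CPM in cKO cells, and counts over the whole gene include reads outside exons 6 and 7, so they do not check the deletion. Lyz2, whose locus carries Cre, was lower in cKO cells in NT (log2 change -0.60), LPS (-1.25) and IL-4 (-0.77) libraries. Of the 7 macrophage markers, 2 were called higher and 5 lower in cKO than in WT NT cells. Of all genes, 21.9% were higher and 26.1% lower there. In LPS cells 2 of the 7 were higher and 2 lower (17.3% and 8.9% of all genes). In IL-4 cells it was also 2 higher and 2 lower (14% and 10.6% of all genes). The deposited value of Zmynd8 was 116 in Zmynd8 KO against 506 in WT Zmynd8 cells. Rela was 778 in p65 KO against 1574 in WT p65 cells within a table, and 5963 in K122R against 1571 in WT p65 cells within another, so the rescue lines did not carry equal Rela. Libraries also held markers of other cells. Stromal markers, from cells that can make Csf1, summed to at most 2.93 CPM in BMDMs. Their sum was 0.687 CPM in WT NT, 2.93 in WT LPS and 2.33 in WT IL-4 libraries. In cKO cells it was 0.841, 2.90 and 1.72 CPM. Their part in the Csf1 values was not tested. The 4 dendritic cell markers summed to 1.30 CPM in WT NT, 12.6 in WT LPS, 4.86 in WT IL-4, 0.664 in cKO NT, 16.0 in cKO LPS and 5.36 in cKO IL-4 libraries. After LPS 2 of the 4 had enough counts in each genotype, Xcr1 and Ccr7, and both were called higher, while Flt3 had 0 counts in the NT and LPS libraries. After IL-4 Zbtb46 was called higher in both genotypes. In the NT libraries Ccr7 had 2 (WT) and 3 (cKO) counts and Zbtb46 had 5 and 0, so both could only be called higher. The part of these markers in the LPS and IL-4 values below was not tested. The sum of 8 neutrophil and precursor markers was 2.06 to 4.02 CPM in the NT and LPS libraries and 280 to 389 CPM in the IL-4 libraries. It was 3142 to 8448 recovered reads per 1000000 in the 3 Zmynd8 lines, where B cell markers also summed to 80.4 to 109, dendritic cell markers to 80.2 to 153, mast cell markers to 17.4 to 19.9 and T cell markers to 0.333 to 6.14. In the p65 lines only 3 of the 8 neutrophil markers were listed, and they summed to 0.180 to 0.319, while dendritic cell markers, 3 of 4 listed, summed to 28.2 to 38.5. The Zmynd8 lines thus went against their label for the neutrophil, B cell and mast cell markers, and the part of other cells in their values was not tested. In bulk RNA, a change in the number of cells of a type and a change in RNA per cell cannot be told apart.

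At rest Csf1r, Csf2ra and Csf2rb were far more abundant than any ligand, and Csf3r was nearer to Csf1. On the per-length scale of transcripts per 1000000 (TPM), WT NT cells held 573 TPM of Csf1r, 193 TPM of Csf2ra, 98.0 TPM of Csf2rb and 18.1 TPM of Csf3r. Csf1 was at 9.43 TPM. Csf3 was at 0.14 TPM, and Csf2 and Il34 were at 0. The order of the receptors was the same in cKO NT cells, from 472 TPM of Csf1r to 12.4 TPM of Csf3r, with Csf1 at 6.31 TPM. With 1 library per condition there is no spread over replicates against which to test neighbours in this order.

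After LPS the 4 receptor genes drew level. Csf3r led in both genotypes, at 238 TPM in WT and 212 TPM in cKO cells. Csf2ra was the lowest of the 4, at 146 and 160 TPM. After IL-4, Csf1r stood far above the rest, at 1767 TPM in WT and 1419 TPM in cKO cells. It was then the gene of rank 68 among all genes in WT cells and of rank 100 in cKO cells. Over the 6 libraries, Csf3r varied 17.6-fold in CPM between its lowest and highest library, Csf1r 8.29-fold, Csf1 5.52-fold, Csf2rb 5.39-fold and Csf2ra only 1.62-fold.

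**Figure D1:**
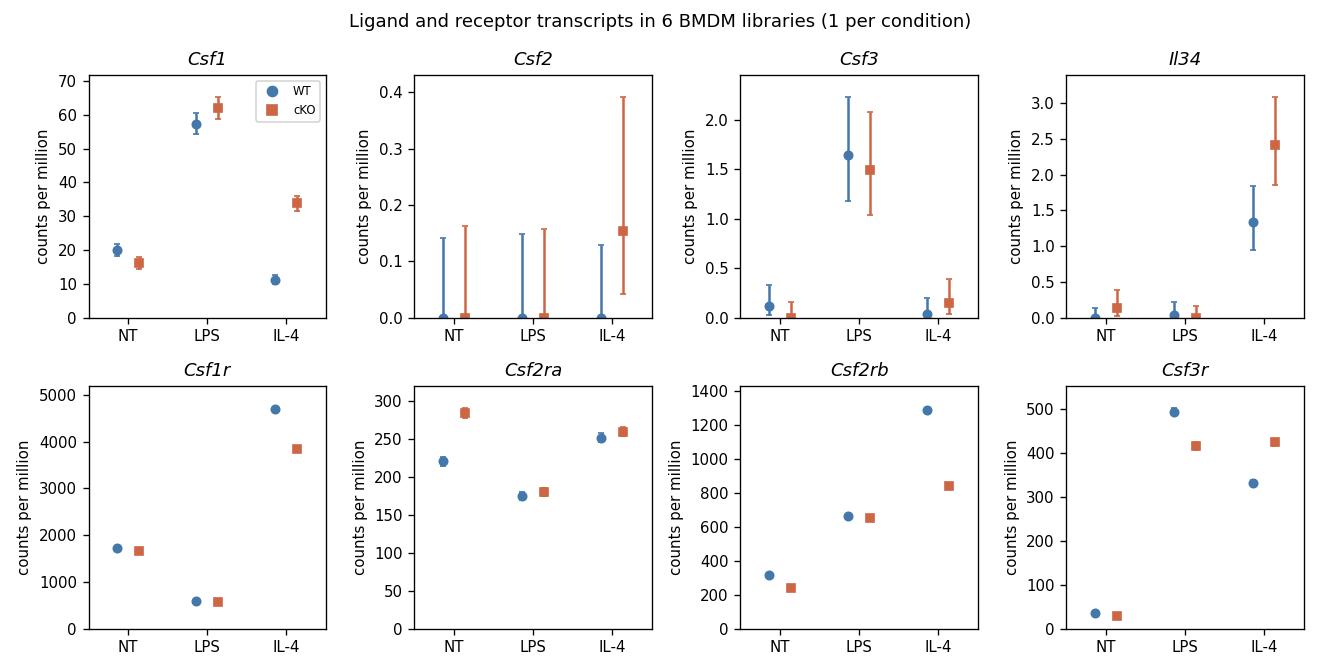
Counts per 1000000 (y axis, linear from 0, a scale of its own for each gene) of the 8 genes in the 6 BMDM libraries, WT as circles and cKO as squares, 1 library per point. Bars are 95% Poisson limits of the count and cover counting error only. Csf1r was lowest after LPS and highest after IL-4, Csf3r was high after either, and Csf2 did not exceed 4 counts.

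After LPS both ligand and receptor genes differed from NT cells. Csf1, Csf3, Csf2rb and Csf3r rose and Csf1r fell, in WT and in cKO cells. A gene was called here at a fold of at least 2 in log2(CPM + 1) with an adjusted exact binomial p below 0.05. That test compares the reads of 2 libraries and not the conditions, so only limits of counting error are given. Of 6 members with enough counts, 5 were called in WT cells (4 higher, 1 lower), against 43.3% of all genes tested (10.5% higher, 32.8% lower). In cKO cells 5 of 6 were called too (4 higher, 1 lower), against 46% of all genes (13.2% higher, 32.8% lower). Csf3 passed the count filter only through its LPS libraries and so could only be called higher. Without it, 4 of 5 were called in each genotype (3 higher, 1 lower). The share called was thus high among all genes as well. The median log2 change of all genes was -0.58 in WT and -0.55 in cKO cells, and changes are read here against that median.

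Csf1, the ligand that sustains macrophages, stood at 20.0 CPM in WT NT, 57.4 in WT LPS, 16.2 in cKO NT and 62.01 in cKO LPS libraries. The LPS libraries were the higher in both genotypes. Its log2 change was 1.47 in WT (95% counting limits of the ratio 1.37 to 1.67) and 1.88 in cKO cells (1.77 to 2.11). Csf3 was nearly absent without LPS, with 3 counts in WT NT and 0 in cKO NT cells. After LPS it had 41 counts in WT and 35 in cKO cells. The WT ratio was 14.4, with counting limits of 4.59 to 72.6, and cKO cells rose at least 11.3-fold against a floor of 3 counts in the NT library. That bound leaves out the counting error of the LPS library, and the lower 95% limit of the log2 ratio with it was 3.12. Csf3 remained a rare transcript in the LPS libraries, at 1.65 and 1.49 CPM. Csf2 had 0 counts in the NT and LPS libraries of both genotypes, and the floor of 3 counts amounts to 0.114 to 0.133 CPM there. The two-sided 95% Poisson limits drawn in the plot of counts are wider, up to 0.141 to 0.163 CPM.

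Among the receptors, Csf3r showed the widest change. It rose from 35.6 to 493 CPM in WT and from 28.1 to 415 CPM in cKO cells, log2 changes of 3.75 and 3.84. The neutrophil marker Ly6g had 0 counts in both LPS libraries and Mpo at most 1. The 8 neutrophil markers together were 2.06 CPM in NT and 4.02 in LPS libraries of WT cells, where S100a8 had 32 and 70 counts and Camp 2 and 12, and 2.30 and 2.43 CPM in those of cKO cells. Their part in the Csf3r value was not tested. Csf2rb, the beta chain shared by GM-CSF and its relatives, rose from 318 to 665 CPM in WT and from 239 to 650 CPM in cKO cells. Its log2 changes were 1.06 and 1.44, and the WT value was under the 2-fold threshold on deposited TPM (0.98) and with Csf2rb2 added (0.97). Under TMM scaling, which put the all-gene medians at -0.02 and -0.03, the changes in WT and cKO cells were 1.74 and 2.05 for Csf2rb, 2.13 and 2.47 for Csf1, and 4.42 and 4.44 for Csf3r. Csf1r fell from 1731 to 588 CPM in WT and from 1666 to 567 CPM in cKO cells. Its log2 change was -1.55 in both, against all-gene medians of -0.58 and -0.55. It was below the 2-fold threshold when the libraries were scaled by TMM, at -0.88 and -0.94. Csf2ra was 221 and 175 CPM in WT NT and LPS and 284 and 180 CPM in cKO cells, and was not called. Its log2 value in WT cells was -0.33 by library totals and 0.35 by TMM, so no direction can be given for it.

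By library totals, the LPS response of 3 members differed between the genotypes by more than counting error. The difference of the log2 changes (cKO minus WT) was 0.40 for Csf1 (95% counting limits 0.185 to 0.624), 0.38 for Csf2rb (0.319 to 0.436) and -0.32 for Csf2ra (-0.401 to -0.242). For Csf1r it was 0.001 (-0.038 to 0.040) and for Csf3r 0.09 (-0.064 to 0.237). On deposited TPM the Csf2ra difference was 0.02 (-0.0583 to 0.101), so its limits included 0. Csf1 (0.63), Csf2rb (0.71), Csf1r (0.26) and Csf3r (0.34) were above 0. The all-gene medians of the LPS change were -0.56 in WT and -0.27 in cKO cells on that scale. These differences include that shift of all genes, so they cannot be compared directly with those by library totals. Between genotypes, Csf1, Csf2rb and Csf2ra were called in the NT libraries and not in the LPS libraries. No replicate shows how much separately mixed libraries of 1 genotype would differ.

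After IL-4 most receptor genes of the family were higher. Csf1r, Csf2rb and Csf3r rose in both genotypes, Il34 had at most 3 counts without IL-4, and Csf1 passed the 2-fold rule in cKO but not in WT cells. Of 6 members with enough counts, 4 were called in WT cells, all higher, against 16.2% of all genes (10% higher, 6.19% lower). In cKO cells 5 were called, all higher, against 21.1% of all genes (15% higher, 6.09% lower). Il34 passed the filter only through the IL-4 libraries and so could only be called higher. Without it, 3 of 5 were called in WT and 4 of 5 in cKO cells. The NT libraries are those of the LPS comparison. Whether the IL-4 and NT libraries were prepared together is not given in the sources used here. The titles of the IL-4 libraries carry sample indices apart from those of the NT and LPS libraries. The deposited IL-4 data also held 2 entries that are not genes, and the NT and LPS data 431 each. Any difference in preparation therefore cannot be told apart from IL-4. The median log2 change of all genes was 0.15 in WT and 0.17 in cKO cells.

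Csf1r reached 4702 CPM in WT IL-4 and 3847 in cKO IL-4 cells, log2 changes of 1.44 and 1.21. Csf2rb reached 1289 and 839 CPM, log2 changes of 2.01 and 1.81. Csf3r reached 330 and 424 CPM, log2 changes of 3.18 and 3.87. Both IL-4 libraries were above both NT libraries for each of these receptor genes. For Csf3r, neutrophil transcripts moved with it. S100a9 was 121.6 CPM in WT IL-4 and 185 in cKO IL-4 libraries against 0.496 and 0.531 in NT libraries, and Mpo was 25.0 and 31.6 CPM against 0 counts. Of the 8 markers, 7 exceeded 3 counts in the cKO and 7 in the WT IL-4 library, while Ly6g stayed at 2 and 3 counts. Their part in the Csf3r value was not tested, nor was that of the dendritic cell markers, which went from 1.30 to 4.86 CPM in WT and from 0.664 to 5.36 CPM in cKO cells, in any of these values. Csf2ra was 252 and 260 CPM and was not called.

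On the ligand side, Il34, the other ligand of CSF1R, had 0 counts in WT NT and 38 in WT IL-4 cells, at least 11.7-fold higher against the floor of 3 counts. With the counting error of the IL-4 library, the lower 95% limit of the log2 ratio was 3.18. In cKO cells it went from 3 to 63 counts, a ratio of 18.2 with counting limits of 5.94 to 90.4. It stayed low, at 1.34 and 2.41 CPM. LPS libraries held 1 count in WT and 0 in cKO cells. Csf1 was 11.2 CPM in WT IL-4 and 33.8 CPM in cKO IL-4 cells, log2 values of -0.78 (not called) and 1.02 (called). The cKO call was lost under TMM scaling, at 0.83, and with edgeR at the assumed variation of 0.2. The IL-4 response of Csf1 differed between genotypes (cKO minus WT) by 1.80 on the log2 scale, with counting limits of 1.53 to 2.07. For Csf3r the difference was 0.69 (0.543 to 0.845) and for Csf1r -0.24 (-0.258 to -0.212). For Csf2ra it was -0.32 (-0.389 to -0.249) and for Csf2rb -0.21 (-0.262 to -0.152). On deposited TPM, whose all-gene medians were 0.16 in WT and 0.34 in cKO cells, the differences were 2.12 for Csf1 and 0.85 for Csf3r. They were -0.04 for Csf1r, -0.10 for Csf2ra and 0.02 for Csf2rb (-0.0363 to 0.0736), so the Csf2rb limits included 0. These differences include the shift between those medians, so they cannot be compared directly with those by library totals. Csf2 had 4 counts in the cKO IL-4 library and 0 in every other BMDM library. Csf3 had 1 count in the WT and 4 in the cKO IL-4 library.

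**Figure D2:**
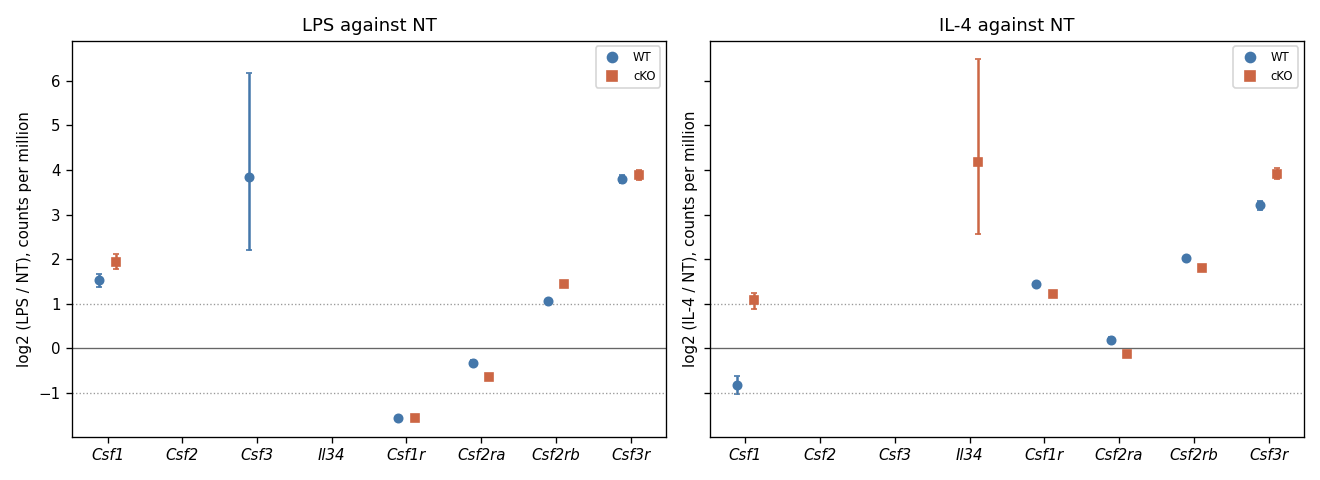
Log2 ratio of treated to NT libraries in CPM without a pseudocount (y axis) for each gene with enough counts in both libraries, LPS on the left and IL-4 on the right, WT as circles and cKO as squares, 1 library per condition. Bars are 95% Clopper-Pearson limits for counting error and dotted lines mark a 2-fold change. Csf1r fell after LPS and rose after IL-4, and Csf1 after IL-4 lay below 0 in WT and above 0 in cKO cells.

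Loss of Zmynd8 was then compared within each treatment, where the study asks whether ZMYND8 restrains macrophage activation. Without treatment, Csf2ra was higher and Csf1, Csf2rb and Csf3r were lower in cKO cells. After LPS no member was called. After IL-4, Csf1 and Csf3r were higher and Csf1r and Csf2rb lower in cKO cells. Calls here needed a fold of at least 1.2, the threshold of the study's methods, with an adjusted exact binomial p below 0.05. In NT cells 4 of 5 members tested were called (1 higher, 3 lower), against 48% of all genes (21.9% higher, 26.1% lower). In LPS cells it was 0 of 6, against 26.2% (17.3% higher, 8.9% lower). In IL-4 cells it was 5 of 6 (3 higher, 2 lower), against 24.5% (14% higher, 10.6% lower), and 1 of the 3 higher was Il34, whose direction turned on deposited TPM. The share of members called in NT and IL-4 cells rests on few genes, and the background in NT cells was itself high.

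In NT cells, Csf2rb was 318 CPM in WT and 239 in cKO libraries (log2 change -0.41). Csf3r was 35.6 and 28.1 CPM (-0.33), Csf1 was 20.0 and 16.2 CPM (-0.29) and Csf2ra was 221 and 284 CPM (0.36). Csf1r was 1731 and 1666 CPM and was not called. On the deposited TPM, Csf2ra (0.11) lost its call and Csf1r (-0.28) gained one. The all-gene median was -0.20 on that scale and -0.01 in CPM, and both genes moved in the direction of that shift. With edgeR's exact test and an assumed biological coefficient of variation of 0.2 in place of counting error, no member was called in NT cells, and only Csf1 was called in IL-4 cells.

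In LPS cells the members lay close together. Csf3r was 493 and 415 CPM in WT and cKO libraries, a log2 value of -0.25 that passed the threshold under TMM scaling (-0.29). Csf1 was 57.4 and 62.01 CPM, Csf1r 588 and 567 CPM, and Csf2rb 665 and 650 CPM. Csf2ra was 175 and 180 CPM. Csf3, with 41 and 35 counts, had a log2 ratio within counting limits of -0.834 to 0.546, so a difference of less than that size was not detectable at this depth.

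In IL-4 cells, Csf1 differed most. It was 11.2 CPM (319 counts) in WT and 33.8 CPM (883 counts) in cKO libraries, a log2 change of 1.51, with counting limits of 1.40 to 1.78 for the log2 ratio without a pseudocount. It was the 1 member above a 2-fold change. Csf2ra was 252 and 260 CPM and was not called. Csf2rb was 1289 and 839 CPM (-0.62), and Csf1r was 4702 and 3847 CPM (-0.29). Csf3r was 330 and 424 CPM (0.36), while the 8 neutrophil markers summed to 280 CPM in WT and 389 CPM in cKO libraries, and their part in it was not tested. Il34 had 38 and 63 counts, and its log2 change of 0.54 turned to -0.25 when the deposited TPM were used, so no direction can be given for it.

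**Figure D3:**
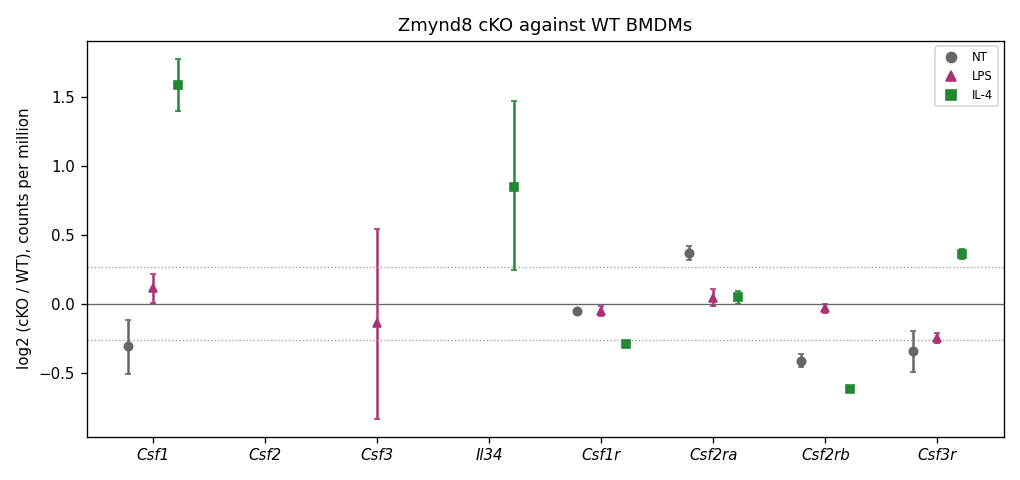
Log2 ratio of cKO to WT libraries in CPM without a pseudocount (y axis) for genes with enough counts, in NT (circles), LPS (triangles) and IL-4 (squares) cells, 1 library per condition. Bars are 95% Clopper-Pearson limits for counting error and dotted lines mark a 1.2-fold change. Csf1 and Csf3r lay below 0 in NT and above 0 in IL-4 cells, and Csf2rb lay lowest in IL-4 cells.

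Csf2rb2, which encodes the mouse beta chain specific to IL-3 and neighbours Csf2rb on chromosome 15, moved with Csf2rb. It was 392 and 304 CPM in NT, 730 and 701 in LPS and 1068 and 749 in IL-4 libraries of WT and cKO cells. Of the 50-base stretches of Csf2rb transcripts, 12.3% also occur in Csf2rb2, so reads of the pair can be split between them and each value is uncertain. With the counts of the pair added together, the log2 change after LPS was 0.97 in WT cells, just under the 2-fold threshold. For Csf3r, 10.5% of such stretches occur in another annotated gene. The other members shared none.

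The partners of these receptors gave a wider view. Of 5 genes of the beta common family (Csf2rb2, Il3, Il5, Il3ra, Il5ra), 2 had enough counts in each BMDM comparison. Between genotypes 1 of the 2 was called in each treatment, lower in cKO cells each time, against 26.1% (NT), 8.9% (LPS) and 10.6% (IL-4) of all genes lower. It was Csf2rb2 in NT (-0.36) and IL-4 (-0.51) cells. In LPS cells it was Il3ra, the IL-3 alpha chain, at 75.6 CPM in WT and 57.4 in cKO cells (-0.39). Csf2rb2 also rose after LPS in cKO cells (1.203) and after IL-4 in WT (1.44) and cKO cells (1.30). Of the other IL-34 binding proteins (Ptprz1, Sdc1), only the syndecan Sdc1 could be tested. It fell after IL-4 in WT cells from 56.96 to 25.4 CPM (-1.13), as did 6.19% of all genes. In cKO cells its value after IL-4 was -0.81, which was not called. Sdc1 was lower in cKO than in WT cells in NT (-0.27) and LPS (-0.51) libraries, as were 26.1% and 8.9% of all genes. In IL-4 libraries it was not called between genotypes (0.06). It was higher in K122R than in WT p65 cells (0.58), as were 30.8% of all genes.

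Among 23 genes of receptor signalling, 7 rose and 3 fell after LPS in WT cells, and 7 rose and 2 fell in cKO cells. Of all genes, 10.5% rose and 32.8% fell in WT, and 13.2% and 32.8% in cKO cells. The list's medians were 0.23 and 0.86 against all-gene medians of -0.58 and -0.55. Jak2, the kinase bound by the GM-CSF and IL-3 receptors, was highest in both. It rose from 42.4 to 356 CPM in WT (3.04) and from 22.7 to 452 CPM in cKO cells (4.26). Dok2, an adaptor that dampens receptor signals, was lowest in both (-2.30 and -2.66). After IL-4, 6 rose and 1 fell in WT, and 8 rose and 1 fell in cKO cells, against 10% and 6.19% of all genes in WT and 15% and 6.09% in cKO cells. The Src family kinase gene Fgr was highest in WT (4.50) and Jak2 in cKO cells (3.99), and Dok2 was lowest in both (-1.04 and -1.59).

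In untreated cKO cells, 2 of these 23 signalling genes were higher and 13 lower than in WT cells, where 21.9% of all genes were higher and 26.1% lower. Their median was -0.44 against -0.01 for all genes. Jak2 was lowest (-0.87) and Tyrobp, an adaptor of myeloid receptors, highest (0.57). After LPS, with 26.2% of all genes called, 3 were higher, from Jak2 (0.34) to the ubiquitin ligase gene Cbl (0.76), and none was lower. After IL-4, with 24.5% of all genes called, 3 were higher and 1 was lower (Fgr, -0.37).

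In a list of 6 feedback, STAT5-response and shedding genes, 5 rose after LPS in WT and 4 in cKO cells and none fell, while 10.5% and 13.2% of all genes rose. They were led by Socs3, a suppressor of cytokine signalling, from 2.98 to 767 CPM in WT (7.59) and from 1.42 to 662 CPM in cKO cells (8.10). The lowest of those called were Socs2 in WT (1.48) and Cish in cKO cells (1.34). After IL-4 5 of 6 rose in WT and 6 of 6 in cKO cells, while 10% and 15% of all genes rose. Only 4 of the 6 had enough counts when the NT libraries were compared. The others entered the LPS and IL-4 comparisons through the treated libraries and could only be called higher there. Cish, a STAT5 target, led in WT (5.66) and Socs3 in cKO cells (5.17). Adam17, the protease that sheds CSF1R from the surface, was the lowest of those called in WT (1.92) and Pim1 in cKO cells (1.12). Between genotypes after IL-4, 2 were higher and 1 lower in cKO cells (14% and 10.6% of all genes), with Socs3 at 26.1 and 85.7 CPM (1.68) and Socs2 at 26.2 and 10.9 CPM (-1.19). In NT cells 3 were lower, from Socs3 (-0.72) to Adam17 (-0.36), as were 26.1% of all genes. After LPS 1 was higher (Adam17, 0.48) and 2 were lower (lowest Cish, -0.71), against 17.3% and 8.9% of all genes.

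Of 9 factors known to bind at Csf1r in macrophages, 1 rose and 5 fell after LPS in WT cells, and 1 rose and 4 fell in cKO cells, while 32.8% of all genes fell in either genotype. The list's medians were -1.53 and -0.85 against -0.58 and -0.55 for all genes. Cebpa, a myeloid lineage factor, fell from 191 to 12.3 CPM in WT (-3.85) and from 196 to 11.1 CPM in cKO cells (-4.03). Its relative Cebpb rose from 53.0 to 181 CPM (1.75) and from 25.4 to 246 CPM (3.23). After IL-4, 2 rose and 2 fell in WT cells (10% and 6.19% of all genes), and 1 rose and 2 fell in cKO cells (15% and 6.09%). Egr2 rose from 25.5 to 265 CPM in WT (3.33) and from 22.3 to 142 CPM in cKO cells (2.62), and Egr1 fell in both (-2.98 and -2.33). Between genotypes, 6 were higher and 2 lower in cKO cells after LPS, where 17.3% of all genes were higher and 8.9% lower, with Egr1 (0.95) and Spi1, which encodes PU.1 (-0.44), at the ends. In NT cells 1 was higher (Ets2, 0.29) and 4 were lower (lowest Cebpb, -1.04), against 21.9% and 26.1% of all genes. In IL-4 cells 1 was higher (Ets2, 0.94) and 2 were lower (lowest Egr2, -0.89), against 14% and 10.6%.

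For each member averaging 100 counts or more, the 3 genes with the closest pattern over the 6 BMDM libraries were found among 9933 genes. The measure was the root mean square (RMS) difference of centred log2(CPM + 1). Csf3r lay closest to the class I gene H2-Q4 (0.191), the adhesion gene Icam1 (0.237) and Jak2 (0.240). Csf1r lay closest to Tmbim1 (0.097), Spef1 (0.114) and Chek2 (0.117). Csf2rb lay closest to Lpcat2 (0.137), Nuak2 (0.196) and Traf5 (0.197). Csf1 was followed by Gm6377 (0.225), Ehd1 (0.230) and Gm15726 (0.250), and the steady Csf2ra by Mkks (0.026), Mrpl10 (0.035) and Ufsp2 (0.051). With 6 libraries these distances describe and test nothing.

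In the libraries labelled Raw264.7, deposited values are compared only within a table, on log2(value + 1), where a fold of 1.2 or more made a call without any test. A large share of all genes passes such a rule with 1 library per line. In the Zmynd8 lines the receptor genes were high and Csf2 was nearly absent. In the LPS-treated p65 lines Csf2 was plentiful and Csf3r was low. Expressed as recovered reads per 1000000, Csf2 was at most 0.333 in the Zmynd8 lines where it was listed and 16.6 to 97.8 in the p65 lines, and Csf3r was 412 to 548 and 5.35 to 27.3. These tables were normalized separately and the treatment of the Zmynd8 lines is not settled, so no test is given between them. The neutrophil markers summed to 3142 to 8448 in the Zmynd8 lines and, with 3 of 8 listed, to 0.180 to 0.319 in the p65 lines. Their part in the Csf3r values was not tested.

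**Figure D4:**
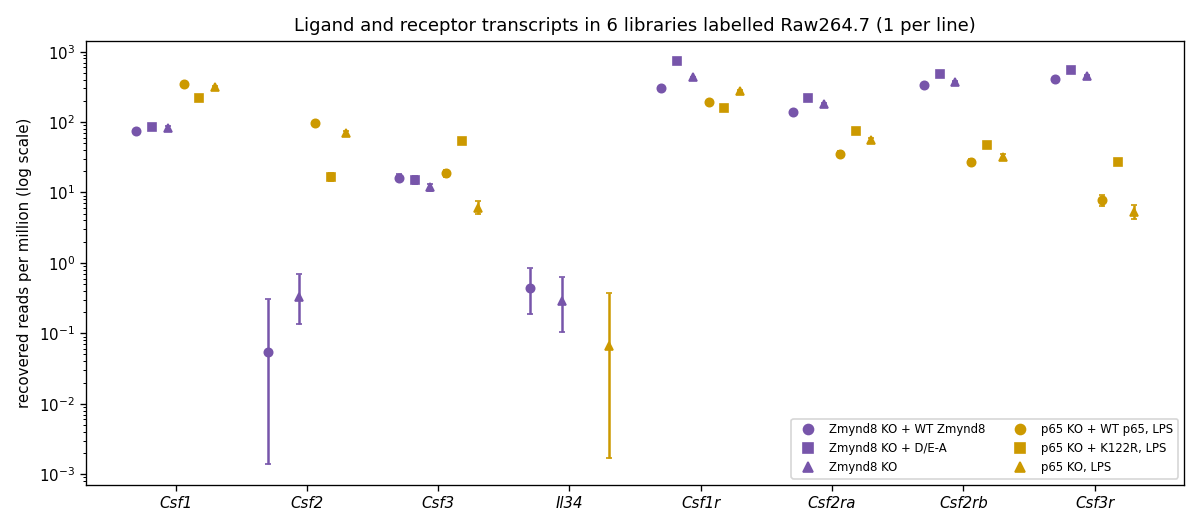
Recovered reads per 1000000 (y axis, log scale) of the 8 genes in the 6 libraries labelled Raw264.7, Zmynd8 lines in purple and LPS-treated p65 lines in yellow, 1 library per point. Bars are 95% Poisson limits for counting error, and genes not listed or at 0 are not drawn. Csf2 separated the line families one way and Csf3r the other, and the part of other cells in these values was not tested.

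D/E-A cells had more of the receptor transcripts than WT Zmynd8 cells. This table holds only genes with at least 21 recovered reads in the WT Zmynd8 library. Of 6 members listed, 4 were called, all higher, against 72.6% of all genes (36.7% higher, 35.9% lower). Csf1r was 5425 in WT Zmynd8 and 13385 in D/E-A cells (log2 change 1.30), Csf2ra was 2524 and 4082 (0.69), Csf2rb was 6089 and 8949 (0.56) and Csf3r was 7403 and 10057 (0.44). Csf1 was 1358 and 1545 and Csf3 was 291 and 275, neither called, and Csf2 and Il34 were not listed. The neutrophil markers summed to 8448 recovered reads per 1000000 in WT Zmynd8 and 3142 in D/E-A cells, the opposite direction to Csf3r, and the 7 macrophage markers to 4677 and 8718, the same direction as the 4 receptors. Their part in these values was not tested.

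Zmynd8 KO cells were compared with the same WT Zmynd8 library. Of 8 members, 5 were called (3 higher, 2 lower) against 70.3% of all genes (33.8% higher, 36.5% lower). Csf1r was 5791 in WT Zmynd8 and 8738 in KO cells (0.59) and Csf2ra was 2694 and 3635 (0.43). Csf3 was 311 and 239 (-0.38). The calls of Csf2, with 1 and 7 reads, and of Il34, with 8 and 6 reads, were lost when a test on recovered reads was added. Csf2rb (6499 and 7554), Csf3r (7901 and 9234) and Csf1 (1449 and 1670) were not called. The neutrophil markers summed to 5223 recovered reads per 1000000 in KO cells and the macrophage markers to 5955.

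The ligand genes with a CK-1 element differed in opposite directions in K122R cells. Against WT p65 and after LPS, Csf2 was lower in K122R cells and Csf3 higher. Of 7 members listed, 6 were called (4 higher, 2 lower) against 63.3% of all genes (30.8% higher, 32.5% lower). Csf2 was 1503 in WT p65 and 281 in K122R cells, a log2 change of -2.41 with counting limits of -2.61 to -2.23. Csf3 was 288 and 927, a log2 change of 1.68 with limits of 1.49 to 1.88. Csf1, whose upstream window holds the NF-κB consensus, was 5352 and 3790 (-0.50).

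On the receptor side, Csf3r was 120 and 463 (1.94), Csf2ra 542 and 1277 (1.24) and Csf2rb 417 and 789 (0.92), all higher in K122R cells. Csf1r was 2976 and 2667 and was not called, but passed the threshold when scaled by column totals (-0.30). Csf2rb2 was 105 and 410 (1.95), and Il34 was not listed. The neutrophil markers listed held at most 3 reads in all in K122R and 5 in WT p65 cells. Rela itself was 3.80-fold higher in K122R cells, and the part of that level in these differences was not tested.

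Without added p65, both CK-1 ligands were lower. Of 7 members with enough signal, 5 were called (2 higher, 3 lower) against 51.9% of all genes (26.3% higher, 25.7% lower), with the same WT p65 library as reference. Csf3 was 289 in WT p65 and 93.6 in p65 KO cells (-1.62), and Csf2 was 1506 and 1075 (-0.49). Csf3r was 120 and 82.4 (-0.54). Csf1r was 2983 and 4199 (0.49) and Csf2ra 543 and 851 (0.65), both higher in p65 KO cells. Csf1 (5364 and 4898) and Csf2rb (418 and 488) were not called, and Il34 had 0 and 1 reads. For Csf3 and Csf3r the K122R value lay above the WT p65 reference and the KO value below it, while Csf2 lay below it in both. Csf2ra lay above it in both.

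**Figure D5:**
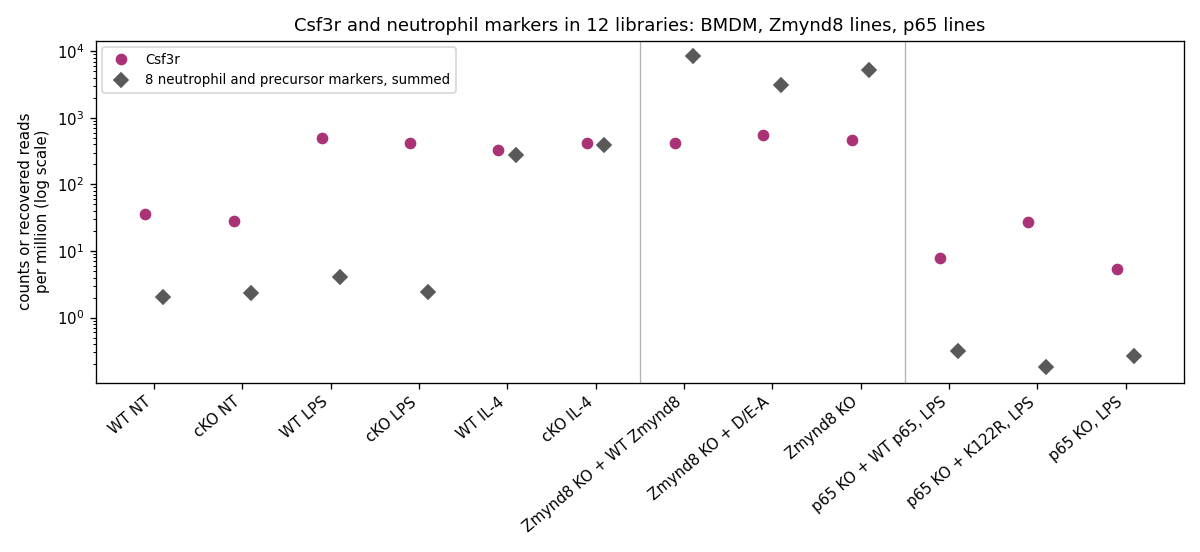
Csf3r (circles) and the summed level of 8 neutrophil and precursor markers (diamonds) in counts or recovered reads per 1000000 (y axis, log scale) in the 12 libraries, 1 per condition, with lines between BMDMs, Zmynd8 lines and p65 lines. Of the 8 markers only 3 were listed in the p65 lines. Csf3r was 493 (WT) and 415 (cKO) CPM in the LPS libraries, with the markers at 2.43 to 4.02 CPM, and 330 and 424 CPM in the IL-4 libraries, with the markers at 280 to 389 CPM.

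The partner lists were counted in the lines by the same fold rule. Of 23 signalling genes, 16 were higher and 1 lower in D/E-A than in WT Zmynd8 cells, where 72.6% of all genes were called (36.7% higher, 35.9% lower). In Zmynd8 KO cells 15 were higher and none lower, with 70.3% of all genes called (33.8% higher, 36.5% lower). The total called was thus near the share of all genes in both. The list's medians were 0.56 and 0.32 against 0.02 and -0.03 for all genes. The ends were Sos1 (1.60) and Tyrobp (-0.55) in D/E-A cells, and Lyn (0.83) and Gab2 (0.30) among those called in KO cells. In K122R cells 7 were higher and 4 lower, with Fgr (1.73) and Inpp5d (-0.58) at the ends, and in p65 KO cells 1 was higher (Dok2, 0.49) and 5 lower (lowest Cbl, -0.51). Of all genes, 63.3% were called in K122R cells (30.8% higher, 32.5% lower) and 51.9% in p65 KO cells (26.3% higher, 25.7% lower). Of the 6 feedback genes, 4 were higher and 2 lower in D/E-A cells and 4 higher and 1 lower in Zmynd8 KO cells, against the same 72.6% and 70.3% of all genes called, led by Socs3 (1.498 and 1.037), with Socs2 lowest (-0.95 and -0.73). In K122R cells 5 were higher and in p65 KO cells 2, none lower in either, against 63.3% and 51.9%. The ends were Socs2 (3 and 10 reads) and Adam17 (0.30) in K122R cells, and Socs2 (3 and 4 reads) and Socs1 (0.33) in p65 KO cells.

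Of the 9 factors known to bind at Csf1r, 6 were higher and 1 lower in D/E-A cells, against 36.7% and 35.9% of all genes, with Egr1 (0.98) and Cebpa (-0.96) at the ends. In Zmynd8 KO cells 5 were higher and none lower (33.8% and 36.5% of all genes), from Ets2 (0.29) to Irf8 (0.45). In K122R cells 4 were higher and 1 lower (30.8% and 32.5% of all genes), Egr1 at the top (2.69) and Fli1 lowest (-0.73). In p65 KO cells 3 were higher and none lower (26.3% and 25.7% of all genes), from Ets2 (0.34) to Egr1 (1.16). Of the beta common family, 1 of 3 with enough signal was higher and 2 lower in D/E-A cells, and 2 of 4 higher and 2 lower in Zmynd8 KO cells. In K122R cells 1 of 2 was higher and 1 lower, and in p65 KO cells 1 of 3 was higher and 2 lower. Of all genes, 72.6%, 70.3%, 63.3% and 51.9% were called. Csf2rb2 was higher in D/E-A (1.04), Zmynd8 KO (0.52), K122R (1.95) and p65 KO cells (1.101). It was 2685 in WT Zmynd8 and 3840 in Zmynd8 KO cells. Il3ra was lower in D/E-A (-0.79) and Zmynd8 KO cells (-0.59). At the ends of this list, Il5 had 0 and 3 reads and Il5ra 63 and 38 in WT Zmynd8 and Zmynd8 KO cells, and Il5ra had 6 reads in WT p65 and 2 in either K122R or p65 KO cells.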

How the data were processed

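For BMDMs, the authors aligned reads to the mm10 transcriptome with TopHat (the counter is not given in the sources used here) and deposited estimated counts per gene, which were rounded here to whole counts. The authors also deposited TPM, made with transcript lengths that differ between libraries. Between 75.2% and 76.6% of the deposited counts above 0 were whole. For Raw264.7, each of the 4 tables deposited by the authors gives a scaled signal for every gene in a pair of libraries. These values are whole reads times a constant for at least 99.9947% of values below 1000 reads (within 0.1 read) and were turned back into reads. The WT Zmynd8 column of the D/E-A table starts at 21 reads, so its constant came from the same library in the Zmynd8 KO table. Fold changes and p-values of the authors, and 2 per-sample columns without a matching label, were left out. The other 35 of 47 samples were not analysed here.

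CPM used library totals. BMDM genes averaging 10 counts or more were tested with two-sided exact binomial tests (SciPy 1.17.1) adjusted by Benjamini-Hochberg over all tested genes, and called at a fold of 1.2 (genotype) or 2 (treatment) and an adjusted p below 0.05. Raw264.7 genes averaging 1 or more were called at a fold of 1.2 alone. Limits are 95% Clopper-Pearson or Poisson limits and cover counting error only. Differences of responses took the variance as the sum of 1/count. Alternatives used TMM and exact tests of edgeR 4.0.16 with an assumed coefficient of variation of 0.2, median-ratio scaling, other pseudocounts, filters and folds, deposited TPM, and Csf2rb and Csf2rb2 added together (chosen after seeing the data, like all alternatives for differences of responses). Upstream windows and transcripts came from GRCm38 (mm10) and GENCODE. The calling functions were tested on simulated data.

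The members and gene lists were chosen with earlier results of these data known. Members were named where they had counts or were listed, and of each pathway list the highest and lowest called gene, except 1 gene that is not reported here. Of marker lists, sums were given.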

Additional observations from a re-analysis of the deposited data

Results flagged for a closer look

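In BMDMs, Csf1 and Csf3r were called in opposite directions between cKO and WT cells in NT and in IL-4 libraries. For Csf1 the log2 change was -0.29 in NT and 1.51 in IL-4 cells, a difference of 1.80. For Csf3r it was -0.33 and 0.36, a difference of 0.69. Each value rests on 1 library per condition, and whether the differences exceed the spread between replicates was not tested. The IL-4 libraries also held 280 (WT) and 389 (cKO) CPM of neutrophil and precursor markers, against 2.06 and 2.30 CPM in the NT libraries, and the part of these in the Csf3r values was not tested.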

How the results depend on the processing

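No paired analysis was made. Every condition is 1 library, so no replicate within a condition could be left out. Of the 8 members, those called in cKO against WT cells went from 4 to 0 in NT and from 5 to 1 in IL-4 cells both at a 2-fold threshold and with edgeR at an assumed coefficient of variation of 0.2, and from 0 to 1 in LPS cells under median-ratio and TMM scaling. At a 2-fold threshold 1 member remained called in D/E-A, 1 in Zmynd8 KO and 1 in p65 KO cells, and 3 in Zmynd8 KO cells with a test on recovered reads. The Zmynd8 KO member left at 2-fold was Csf2, with 1 and 7 reads, whose call was lost in the test on reads. The change of Il34 in cKO against WT IL-4 cells turned to -0.25 on deposited TPM. Of all alternatives for counts of called members, 66 left the count within 1.5 times and 10 did not. The number of members whose LPS response differed between genotypes beyond counting error was 3, and 3 to 4 in the 5 alternatives, but not always of the same members. On deposited TPM the difference turned to 0.021 for Csf2ra after LPS and to 0.019 for Csf2rb after IL-4. The all-gene medians of the responses also differed between genotypes on that scale. Under TMM the difference of Csf1r after LPS turned from 0.001 to -0.063. The alternatives for differences of responses were chosen after seeing the data.

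Among all genes, calls in cKO against WT cells were 5981 (NT), 3246 (LPS) and 3251 (IL-4), against 477, 112 and 261 at a 2-fold threshold and 273, 37 and 160 with edgeR. At 1.2-fold the treatments called 10510 (LPS, WT), 10498 (LPS, cKO), 7934 (IL-4, WT) and 8722 (IL-4, cKO) genes in place of 5548, 5825, 2124 and 2740. In Raw264.7, calls went from 9271, 14978, 12452 and 10325 (D/E-A, Zmynd8 KO, K122R, p65 KO) to 2345, 5460, 3926 and 3149 at 2-fold and to 7900, 7035, 5352 and 2706 with the test on reads. The higher calls were 24.2% (WT) and 28.6% (cKO) of those after LPS by library totals and 52.7% and 53.3% by TMM; after IL-4 they were 61.9% and 71.2%, and 51.3% and 59.2%. In cKO against WT LPS cells they were 66.1%, and 56.1% by TMM and 52.8% by median ratios. In NT cells they were 45.6%, and 22% on deposited TPM, whose all-gene median was -0.20. In K122R cells they were 48.6%, and 37% by column totals. Csf2, Csf3 and Il34 were limited by depth in BMDMs, with at most 4, 41 and 63 counts.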
